A study of Danio rerio with 6 samples.

Results

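Immediate early genes are a group of 10 genes here, taken by exact symbol from the 25281 rows of each count table: fosab, fosb, fosl2, junba and junbb, which encode AP-1 subunits, and egr1, egr3, atf3, nr4a1 and ier2a. Such genes lie silent or low in resting cells and are transcribed within minutes of a stimulus, without new protein synthesis. Growth factors, stretch and stress reach them through MAP kinases, serum response factor with its ELK partners, and CREB. Their products then switch on slower genes: FOS and JUN proteins pair through leucine zippers to form AP-1, and EGR and NR4A1 proteins bind DNA sites of their own. In heart muscle they are known from pressure overload and injury, and they are also known to be transcribed while a tissue is digested into single cells.

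Gene expression was measured by RNA-seq in cardiomyocytes from the atrioventricular canal, the ring between atrium and ventricle, of adult zebrafish. The comparison sets canal cardiomyocytes with active β-catenin signalling beside those without. Every fish carried 3 transgenes. In Tg(myl7:GAL4db-TCFΔC-2A-mCherry), the cardiomyocyte promoter myl7 drives a GAL4 DNA-binding domain joined to a shortened TCF, with mCherry. Tg(UAS:EGFP) lights up where that fusion is active with β-catenin, and Tg(myl7:NLS-mCherry) marks cardiomyocyte nuclei. The GFP-positive group (mCherry+ EGFP+, β-cat ON CMs) and the GFP-negative group (β-cat OFF CMs) had 3 libraries each, from fish of the same genotype aged 4 to 8 months. For the GFP-negative libraries the label for the sort reads mCherry- EGFP+, which conflicts with their titles (GFP-), so their gate is uncertain. All hearts were digested with collagenase for 30 min before the sort, and no undigested tissue was analysed here. Whether the replicates were separate fish or sorts is not stated in the labels; a p-value here therefore reflects only how far these libraries spread, which may be technical.

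Libraries held 14783352 to 15934231 counts in the GFP-positive group and 16275969 to 19750914 in the GFP-negative group. Mitochondrially encoded genes took 35.6% to 44.9% of GFP-positive and 11.9% to 15.7% of GFP-negative counts. GFP-positive libraries were less alike, with a biological coefficient of variation of 105% against 26.8%. Of the 13490 tested genes, 956, 725 and 1270 were at 0 in GFP-positive replicates 1, 2 and 3. In GFP-negative replicates 1, 2 and 3 the numbers were 66, 4 and 13. All GFP-positive libraries thus had more genes at 0, and GFP-positive replicate 3 had the most. Cardiomyocyte markers were present in every library (13 of 13 markers tested, median log2 fold change -0.51). They summed to 37487 to 48712 CPM in GFP-positive and 77200 to 101119 CPM in GFP-negative libraries. By the edgeR test given below, 5 of the 13 were called lower and 1, myh6, higher. Over all tested genes, 2.13% were called lower and 2.08% higher. myh6 stood at 1435 ± 407 CPM in GFP-positive and 392 ± 109 CPM in GFP-negative libraries (SD). CPM here are counts per 1e6 counts of a library after TMM scaling.

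In brief, egr3 and atf3 rose and nr4a1 fell in the GFP-positive libraries. egr3 was 4.66-fold higher, atf3 1.95-fold higher and nr4a1 1.69-fold lower. These calls rest on all 6 libraries: with any 1 left out, atf3 and nr4a1 no longer passed, and egr3 passed in 2 of 6 such fits. For all 5 AP-1 genes the GFP-positive libraries lay wholly above the GFP-negative ones, with log2 fold changes of 0.38 to 0.77, and none passed the threshold. For ier2a the groups overlapped. The test was edgeR's quasi-likelihood F test, with p-values adjusted by Benjamini-Hochberg over all 13490 genes and a threshold of 0.05.

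All 10 genes passed the filter on low counts, so 3 of 10 were called, against 4.21% of all tested genes. By direction, 2 of the 10 rose and 1 fell, where 2.08% and 2.13% of all tested genes did. The groups did not overlap for 9 of the 10 genes, 8 of them with GFP-positive above and 1 below. Over all tested genes the groups did not overlap for 29.6%, with GFP-positive above for 12.1% and below for 17.6%. Highly counted genes are measured more closely and separate more often, so a second background was taken after the values were seen: among the 974 genes averaging 100 CPM or more, 23.8% were called and 55.4% did not overlap. Of the 8 members above that level, 2 were called and 7 did not overlap, 6 with GFP-positive above (18.8% of the 974). Against genes of like level, 2 calls among 8 members is near the background. The median log2 fold change of the 10 was 0.61, beside 0.01 over all tested genes.

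**Figure D1:**
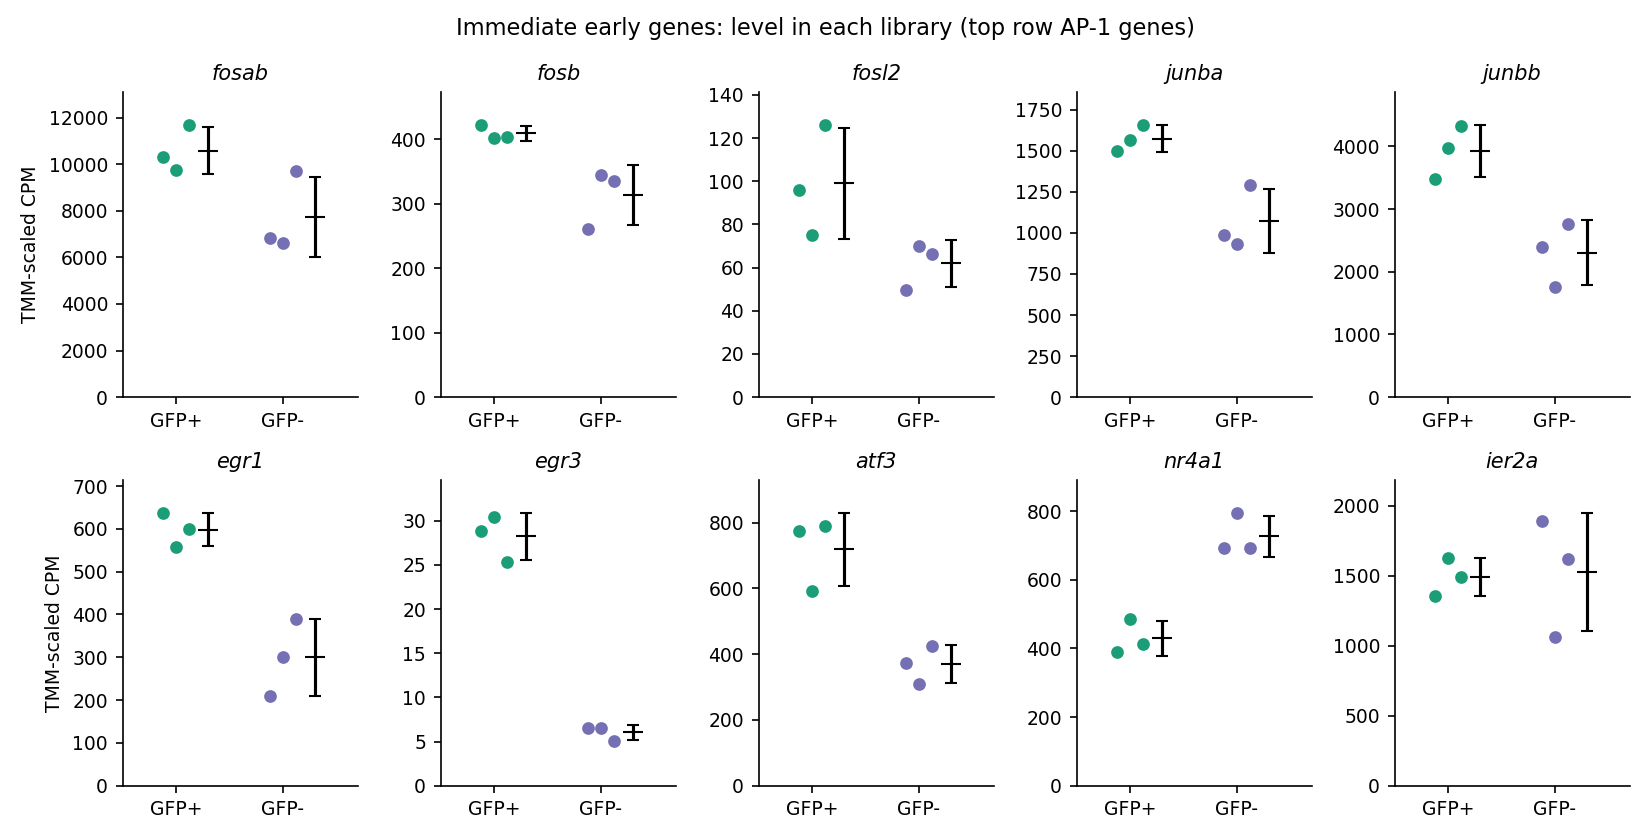
Level of each immediate early gene in each library, in TMM-scaled CPM on axes that start at 0, with the GFP-positive group (green) left of the GFP-negative group (violet). Points are libraries in the order of replicates 1 to 3, and the black mark is the mean ± SD (n = 3). The 3 GFP-positive points lie above all GFP-negative points for 8 genes and below them for nr4a1, and the groups overlap for ier2a.

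Among the FOS genes, fosab, the zebrafish c-Fos gene and a classic readout of recent stimulation, gave the most counts of the 10. fosab (ENSDARG00000031683) stood at 10305, 9742 and 11693 CPM in GFP-positive replicates 1, 2 and 3, against 6850, 6619 and 9710 CPM in GFP-negative replicates 1, 2 and 3. The groups were apart only narrowly: the lowest GFP-positive library was 1.003 times the highest GFP-negative one, replicate 3. The log2 fold change was 0.45 ± 0.19 (SE; edgeR adjusted p = 0.248), with a 95% interval of 0.01 to 0.89. These levels come from 463817 counts over the GFP-positive and 445942 over the GFP-negative libraries, so counting error was small beside the spread between libraries.

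fosb (ENSDARG00000055751), a second FOS gene, stood at 422, 401 and 403 CPM in GFP-positive libraries, against 260, 345 and 336 CPM in GFP-negative libraries. The GFP-positive values lay within 1.05-fold of each other, the tightest set among the 10 genes, and GFP-negative replicate 1 was the low library. The log2 fold change of fosb was 0.38 ± 0.16 (edgeR adjusted p = 0.261; 95% interval 0.00 to 0.76). fosl2 (ENSDARG00000040623), which encodes Fra-2, a slower and longer-lived FOS protein in mammals, stood at 95.9, 74.9 and 126 CPM in GFP-positive libraries, against 49.7, 70.0 and 66.5 CPM in GFP-negative libraries. GFP-positive replicate 2 was only 1.07 times the highest GFP-negative library. Its log2 fold change of 0.67 ± 0.25 did not pass (adjusted p = 0.197). Of the other FOS genes, fosl1a stood at 446 ± 38.8 CPM in GFP-positive and 289 ± 53.7 CPM in GFP-negative libraries and did not pass (log2 fold change 0.62 ± 0.18, adjusted p = 0.108). fosaa had 1 count in GFP-positive and 0 in GFP-negative libraries, and fosl1b had 0 in GFP-positive and 6 in GFP-negative libraries, so no fold is given for either.

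The 2 JUNB genes are zebrafish copies of mammalian JunB, the JUN protein that activates less strongly than c-Jun and restrains growth in several mammalian cell types. junba (ENSDARG00000074378) stood at 1498, 1568 and 1659 CPM in GFP-positive libraries, against 990, 935 and 1294 CPM in GFP-negative libraries. Its lowest GFP-positive library was 1.16 times its highest GFP-negative one, and its log2 fold change was 0.55 ± 0.17 (adjusted p = 0.117). junbb (ENSDARG00000104773) stood at 3487, 3969 and 4321 CPM in GFP-positive libraries, against 2391, 1756 and 2769 CPM in GFP-negative libraries. junbb had the widest gap of the AP-1 genes, 1.26-fold between the nearest libraries, and came nearest to the threshold among them, with a log2 fold change of 0.77 ± 0.20 (adjusted p = 0.0749; 95% interval 0.31 to 1.23).

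The balance of the copies overlapped between groups: junbb had 2.33, 2.53 and 2.61 counts per junba count in GFP-positive libraries, against 2.41, 1.88 and 2.14 in GFP-negative libraries. How the authors' counting divided reads between such close copies is not given in the sources used here. jun, the c-Jun gene and main partner of FOS, stood at 1867 ± 121 CPM in GFP-positive and 1946 ± 398 CPM in GFP-negative libraries (SD, n = 3 each; log2 fold change -0.06 ± 0.18, adjusted p = 0.937). No direction is given for jun, since its sign turned with DESeq2, with cyclic loess, and without GFP-positive replicate 1 or GFP-negative replicate 3.

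As a set, the AP-1 genes had 0 of 5 calls in edgeR, 5 of 5 at an unadjusted p under 0.05, and log2 fold changes from 0.38 to 0.77 (median 0.55). That unadjusted level was reached by 18.9% of all tested genes and 53.8% of the 974 highly counted ones, and with GFP-positive higher by 9.11% and 17.8%. DESeq2 called 2 of them (junba and junbb), limma-voom 1 (junbb), limma-voom with a spread for each group 0, and cyclic loess 3 (fosab, junba and junbb). Of all 13490 tested genes, DESeq2 called 1667 (938 higher) and limma-voom 803 (294 higher). Limma-voom with a spread for each group called 532 (335 higher) and cyclic loess 518 (276 higher). The sign was positive for all 5 AP-1 genes under each of the 16 alternative settings and left-out libraries. Summed, the 5 genes made 15808, 15755 and 18203 CPM in GFP-positive libraries, against 10541, 9724 and 14176 CPM in GFP-negative libraries. GFP-negative replicate 3 came closest to the GFP-positive libraries: it was the highest of its group for 3 of the 5 AP-1 genes and for 5 of all 10 genes.

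Outside AP-1, the EGR genes encode zinc finger activators that carry an early signal on to later genes. egr3 (ENSDARG00000089156), known in mammals from muscle spindles and lymphocytes, stood at 28.8, 30.5 and 25.3 CPM in GFP-positive libraries, against 6.49, 6.57 and 5.07 CPM in GFP-negative libraries. The groups were far apart, with 3.85-fold between the nearest libraries, and rested on 1234 counts over the GFP-positive and 339 over the GFP-negative libraries. egr3 rose by a log2 fold change of 2.22 ± 0.32 (edgeR adjusted p = 0.0163; 95% interval of the fold 2.80 to 7.76). Leaving out GFP-positive replicate 1 or 3 kept the call of egr3, at an adjusted p of 0.0432 or 0.0188. It was lost without GFP-positive replicate 2 (0.0519) and without GFP-negative replicates 1, 2 and 3 (0.0945, 0.0631 and 0.109), with log2 fold changes of 2.09 to 2.30 in these 6 fits.

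egr1 (ENSDARG00000037421), the EGR gene most often used as a marker of stimulation, stood at 636, 559 and 599 CPM in GFP-positive libraries, against 210, 300 and 390 CPM in GFP-negative libraries. Its GFP-negative values spread 1.86-fold, more than its GFP-positive values, which spread 1.14-fold. The log2 fold change of 1.00 ± 0.23 did not pass (adjusted p = 0.0583; 5.39e-04 to 0.180 over the alternatives, 6 of 16 past the threshold). The corepressors of EGR proteins, nab1a and nab2, were low and neither was called with edgeR, DESeq2 or limma-voom (0 of 2 at an unadjusted p under 0.05). nab2 stood at 4.90 ± 2.75 CPM in GFP-positive and 1.73 ± 0.729 CPM in GFP-negative libraries (edgeR adjusted p = 0.445).

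atf3 (ENSDARG00000007823), a CREB-family repressor induced by many stresses and by injury in heart muscle, stood at 776, 592 and 788 CPM in GFP-positive libraries, against 374, 309 and 425 CPM in GFP-negative libraries. Each GFP-positive library was at least 1.39 times any GFP-negative one. atf3 rose by a log2 fold change of 0.96 ± 0.19 (adjusted p = 0.0396; 95% interval of the fold 1.43 to 2.65). Its call was lost in each fit that left out 1 library. The adjusted p was 0.0863, 0.0671 and 0.0606 without GFP-positive replicates 1, 2 and 3, and 0.190, 0.125 and 0.130 without GFP-negative replicates 1, 2 and 3. It was also lost without a composition factor (0.0514) and in limma-voom with a spread for each group (0.0934).

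nr4a1 (ENSDARG00000000796) encodes Nur77, an orphan nuclear receptor that needs no known hormone and is usually induced alongside FOS and EGR genes. It went the other way, at 389, 485 and 413 CPM in GFP-positive libraries, against 691, 794 and 693 CPM in GFP-negative libraries. The lowest GFP-negative library was 1.43 times the highest GFP-positive one. nr4a1 fell by 0.76 on the log2 scale (SE 0.16, adjusted p = 0.0425), which is 1.69-fold lower with a 95% interval of 1.32 to 2.17. The call was lost without any 1 library: the adjusted p was 0.0967, 0.0710 and 0.0625 without GFP-positive replicates 1, 2 and 3, and 0.169, 0.126 and 0.163 without GFP-negative replicates 1, 2 and 3. Leaving the mitochondrially encoded genes out before scaling gave 0.0502, limma-voom with a spread for each group gave 0.125, and cyclic loess gave a log2 fold change of -0.47 (adjusted p = 0.181). Its relative nr4a3 stood at 219 ± 138 CPM in GFP-positive and 214 ± 72.1 CPM in GFP-negative libraries (log2 fold change 0.03 ± 0.47, adjusted p = 0.989), too variable to give it a direction.

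ier2a (ENSDARG00000099195), a gene for a small nuclear protein whose transcript appears early after serum in mammalian cells, was the 1 member whose groups overlapped. It stood at 1352, 1624 and 1491 CPM in GFP-positive libraries, against 1889, 1063 and 1621 CPM in GFP-negative libraries. The GFP-negative libraries held both its highest and its lowest value. The log2 fold change was -0.03 ± 0.22 (adjusted p = 0.975), and its 95% interval ran from -0.56 to 0.49, so a level up to 1.40-fold higher in GFP-positive or 1.47-fold higher in GFP-negative libraries lies within it. Its copy ier2b stood at 185 ± 20.7 CPM in GFP-positive and 159 ± 33.0 CPM in GFP-negative libraries (0.22 ± 0.20, adjusted p = 0.705).

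**Figure D2:**
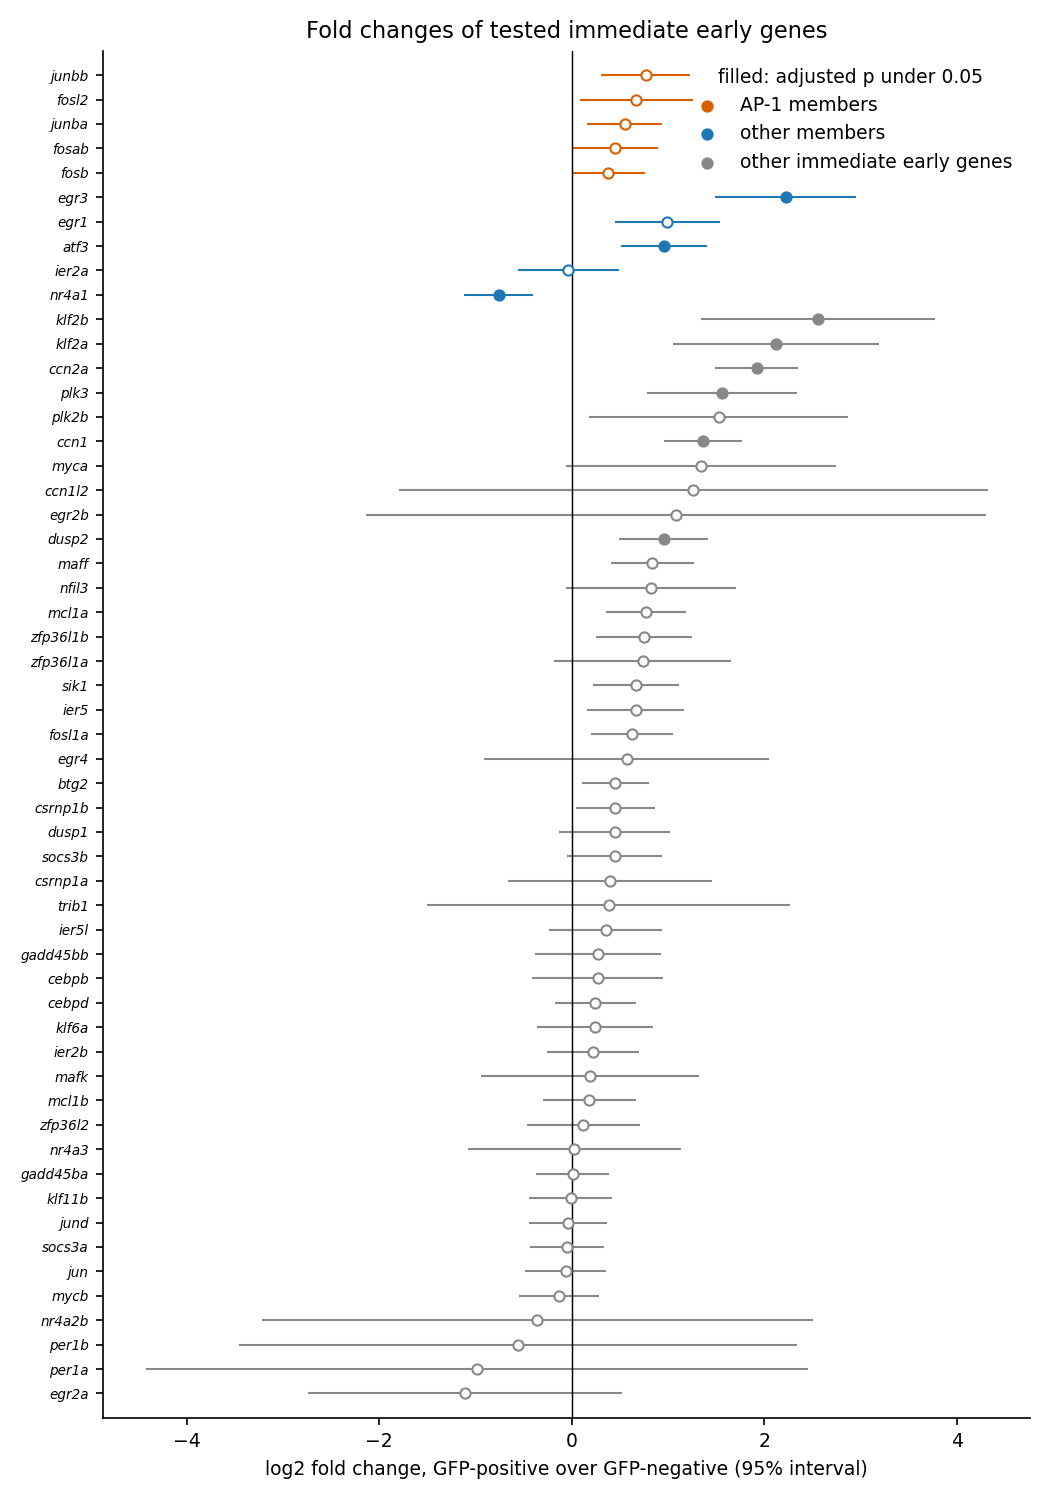
Log2 fold changes (GFP-positive over GFP-negative) of the tested immediate early genes with 95% intervals from the edgeR fit, for the AP-1 genes (orange), the other 5 members (blue) and 45 further genes of the same kind (grey). Filled points have an adjusted p under 0.05. Of the members, egr3 (2.22) and atf3 (0.96) are filled to the right of 0 and nr4a1 (-0.76) to its left.

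Counts of 2 genes in 1 library can be set against each other without any scaling between libraries. Per 100 counts of fosab, the groups overlapped for the other AP-1 genes, junba, junbb, fosb and fosl2; junba had 14.9 ± 1.02 in GFP-positive and 14.0 ± 0.580 in GFP-negative libraries. egr3 had 0.280, 0.313 and 0.216 counts per 100 fosab counts in GFP-positive libraries, against 0.0948, 0.0992 and 0.0523 in GFP-negative libraries. egr1 had 5.68 ± 0.528 in GFP-positive and 3.87 ± 0.745 in GFP-negative libraries, and atf3 had 6.78 ± 0.727 in GFP-positive and 4.83 ± 0.559 in GFP-negative libraries. For both, the lowest GFP-positive value exceeded the highest GFP-negative value. Both were also apart when set against fosb or junba, but the groups overlapped for both when set against junbb or fosl2. junbb had 5.48, 7.11 and 7.22 counts per egr1 count in GFP-positive libraries, against 11.4, 5.85 and 7.11 in GFP-negative libraries. By CPM the groups did not overlap for 29.6% of all tested genes and 55.4% of the 974 of at least 100 CPM. No such share over all genes is given here for ratios. Of the 45 pairs of members, the groups did not overlap for 27, and 10 of those held neither nr4a1 nor egr3.

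nr4a1 had 3.77, 4.98 and 3.54 counts per 100 fosab counts in GFP-positive libraries, against 10.1, 12.0 and 7.14 in GFP-negative libraries. Its ratio to egr1 was 0.611, 0.869 and 0.690 in GFP-positive libraries, against 3.29, 2.65 and 1.78 in GFP-negative libraries. Thus egr1 outnumbered nr4a1 in each GFP-positive library, and nr4a1 outnumbered egr1 in each GFP-negative library; these are counts, not levels per length.

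**Figure D3:**
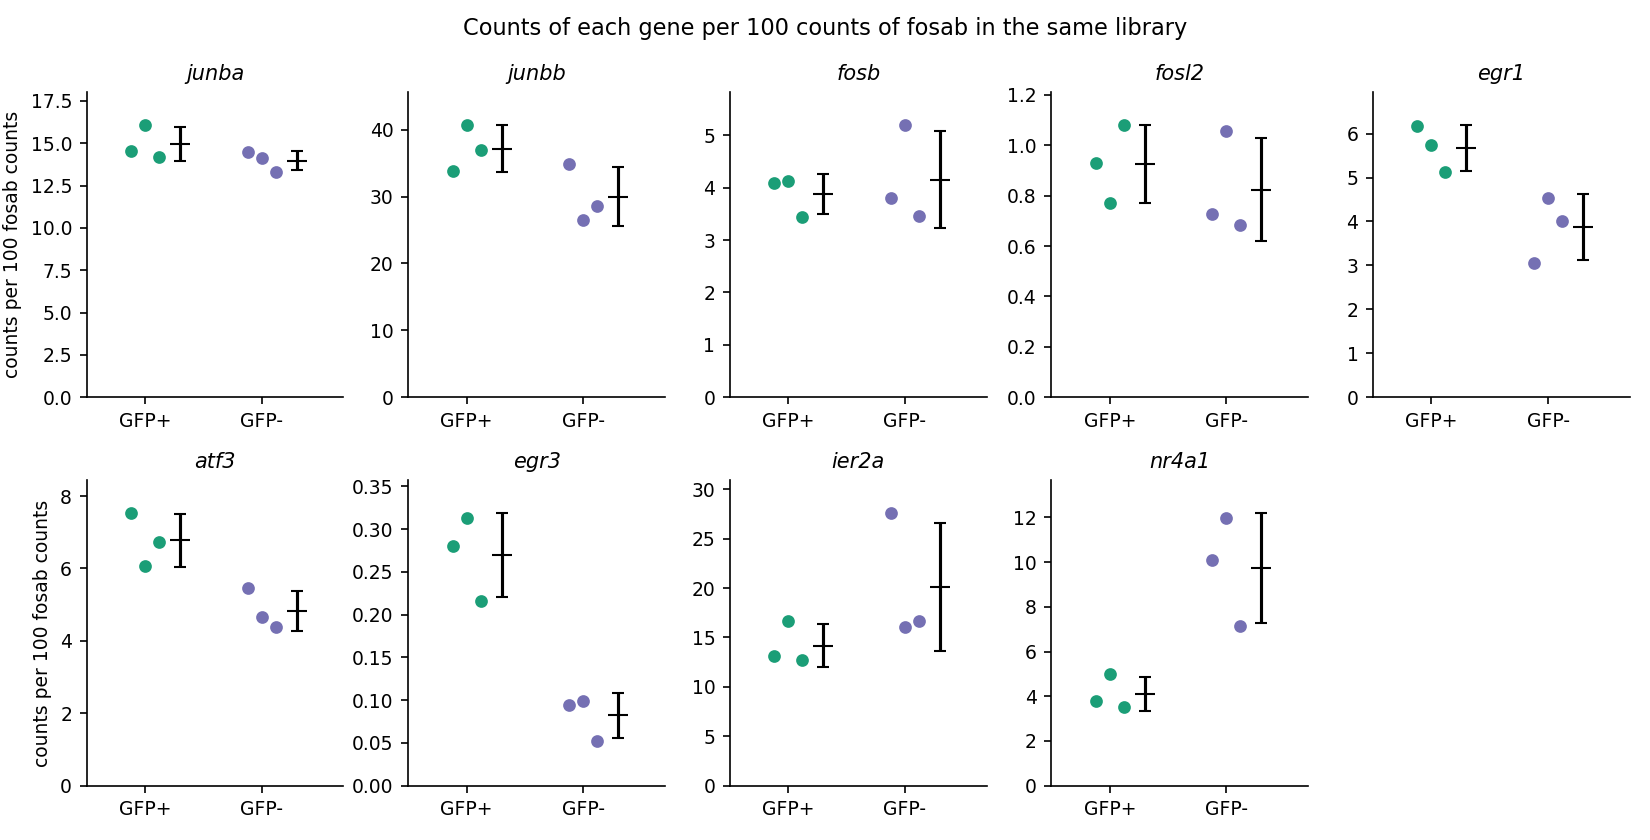
Counts of each gene per 100 counts of fosab in the same library, on axes that start at 0, with GFP-positive (green) left of GFP-negative (violet). Points are libraries and the black mark is the mean ± SD (n = 3). The groups overlap for the 4 AP-1 genes and ier2a; egr1, atf3 and egr3 are higher, and nr4a1 lower, in each GFP-positive library.

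Most members varied less among the GFP-positive libraries, although those were the more variable ones over all genes. The coefficient of variation over 3 libraries had a median of 9.42% in GFP-positive and 17.7% in GFP-negative libraries over the 10 genes. Over the 974 genes of at least 100 CPM the medians were 17.4% in GFP-positive and 14.8% in GFP-negative libraries. The coefficient was smaller in the GFP-positive group for 8 of the 10 members, fosl2 and nr4a1 being the exceptions, and for 43.5% of those 974 genes. No test was made of this difference.

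A wider list of immediate early genes, written with earlier results of these data known, held 45 tested genes besides the 10. Of these, 6 rose, 0 fell and 39 did not pass, with a median log2 fold change of 0.45. The called share was 13.3%, beside 4.21% of all tested genes and 23.8% of the 974 genes of at least 100 CPM. By other tools the count was 15 with DESeq2, 8 with limma-voom and 4 with limma-voom with a spread for each group. Of all 13490 tested genes, these 3 fits called 1667, 803 and 532. Fold changes were positive for 80.0% of the 45, beside 50.5% of all tested genes. ccn2a and ccn1, secreted matrix proteins induced by stretch and serum, rose by 1.92 ± 0.19 and 1.37 ± 0.17 (edgeR adjusted p = 0.00526 and 0.0112). The call of ccn2a held in all 16 alternatives; that of ccn1 was lost without GFP-negative replicate 1 (0.0514) or 3 (0.0655).

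The other 4 are named after their values were seen. klf2b and klf2a, flow-responsive genes of endothelium that also stood in the endocardium list, rose by 2.56 ± 0.52 and 2.12 ± 0.46 (adjusted p = 0.0425 and 0.0489). dusp2, a MAP kinase phosphatase, rose by 0.96 ± 0.20 and the kinase gene plk3 by 1.56 ± 0.33 (adjusted p = 0.0436 and 0.0488). Their calls were near the threshold, and each was lost without GFP-negative replicates 1, 2 or 3, with adjusted p from 0.105 to 0.221. Without GFP-positive replicate 2 the 4 stood at 0.0716 to 0.0871. Without GFP-positive replicate 1, dusp2 (0.0686) and plk3 (0.0705) were lost, and without GFP-positive replicate 3, klf2b (0.0534) and klf2a (0.0671). Without a composition factor all 4 were lost (0.0601 to 0.109), and with upper-quartile factors klf2a (0.0503), dusp2 (0.0680) and plk3 (0.0633). Over the 16 alternatives, dusp2 and plk3 each passed in 7, klf2a in 9 and klf2b in 10. Not every loss of dusp2 and plk3 is listed here.

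In the route that leads to these genes edgeR made no calls, and unadjusted counts are to be read against the 18.9% of all tested genes. Counts by DESeq2 are to be read against the 1667 of 13490 tested genes that it called. Without GFP-positive replicate 3, edgeR called 1018 of 14326 genes. Of 38 tested genes from growth factor receptors to MAP kinases and their targets, edgeR called 0, with 3 at an unadjusted p under 0.05, a median log2 fold change of 0.16 and the kinase gene rps6ka5 nearest (adjusted p = 0.0696). rps6ka5 had only 0, 0 and 1 counts in GFP-positive libraries, against 11, 28 and 18 in GFP-negative libraries, so no fold is given. DESeq2 called 1, both limma-voom fits 0, and edgeR without GFP-positive replicate 3 called 2. Of 7 tested genes of serum response factor, its ELK partners and its myocardin-related coactivators, edgeR called 0. At an unadjusted p under 0.05 there were 3, and the median log2 fold change was -0.97. That median is the value of mrtfab, which had 17, 69 and 42 counts in GFP-positive libraries, against 68, 143 and 109 in GFP-negative libraries. mrtfba had only 0, 1 and 2 counts in GFP-positive libraries, against 36, 21 and 20 in GFP-negative libraries. DESeq2 called 1 and limma-voom 0 in both fits. Of the 7, elk3 was nearest at 1.94 ± 0.48 (adjusted p = 0.0682). Of 22 tested bZIP partners and antagonists of AP-1, edgeR called 0, with 4 at an unadjusted p under 0.05 and a median of 0.16. The count was 2 by DESeq2, 0 by either limma-voom fit, and 1 in edgeR without GFP-positive replicate 3. nfe2l2a, the oxidative stress factor gene Nrf2, came nearest at 0.81 ± 0.20 (adjusted p = 0.0710).

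Feedback genes, transcribed in response to MAP kinase signalling and mostly acting to damp it, had 2 of 16 tested members higher and 0 lower in edgeR. Of all tested genes, 2.08% were called higher and 2.13% lower. The median log2 fold change was 0.40, with 10 of the 16 positive. The count higher was 5 with DESeq2, which called 938 of all 13490 tested genes higher. It was 1 with upper-quartile factors, without a composition factor or in limma-voom with a spread for each group. It was 0 without GFP-positive replicate 2 or any 1 GFP-negative replicate. The 2 genes called in edgeR were dusp2 and the ETS factor gene etv5a. The latter stood at 135, 105 and 88.6 CPM in GFP-positive libraries, against 24.7, 36.5 and 37.1 CPM in GFP-negative libraries (1.74 ± 0.26, edgeR adjusted p = 0.0184). The call of etv5a was lost without GFP-positive replicate 2 (0.0566) and without GFP-negative replicates 1, 2 and 3 (0.0768, 0.0573 and 0.0897). dusp6 went the other way, at 208 ± 40.6 CPM in GFP-positive and 290 ± 60.1 CPM in GFP-negative libraries. Its groups overlapped and it did not pass (-0.48 ± 0.22, edgeR adjusted p = 0.303).

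Heat shock genes, the other class commonly transcribed under handling stress, had mostly negative fold changes. They summed to 8626 to 10225 CPM in GFP-positive and 10486 to 14163 CPM in GFP-negative libraries. The widest gap in means was that of hspb11, at 1467 ± 278 CPM in GFP-positive and 2777 ± 1065 CPM in GFP-negative libraries, and its groups overlapped. Log2 fold changes of hspa8, hsp90ab1, hspb1 and bag3 lay from -0.12 to 0.11. hspa5 was higher in all GFP-positive libraries and did not pass (0.78 ± 0.30, edgeR adjusted p = 0.214). Fold changes were positive for 9 of 26 tested members (median -0.48), beside 50.5% of all tested genes. Of the 26, edgeR called 1, near the 4.21% of all tested genes that were called (2.13% lower). It was the mitochondrial co-chaperonin gene hspe1, which fell by 0.97 (SE 0.20, adjusted p = 0.0457). That call was lost in each fit that left out 1 library (adjusted p 0.0583 to 0.204). DESeq2 called 3 heat shock genes lower, and 729 of all 13490 tested genes. The count was 2 with limma-voom, upper-quartile factors, no composition factor or no filter, and 0 with mitochondrially encoded genes left out, cyclic loess or limma-voom with a spread for each group. The inducible chaperone gene hsp70l stood at 527 ± 112 CPM in GFP-positive and 985 ± 177 CPM in GFP-negative libraries (-0.90 ± 0.22, adjusted p = 0.0615).

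Several lists of markers of other cell types also separated the groups. Their calls are to be read against the 2.08% of all tested genes that were called higher. Endocardium and endothelium markers summed to 525 to 864 CPM in GFP-positive and 136 to 260 CPM in GFP-negative libraries (17 of 17 found, 16 tested, 4 higher), fibroblast markers to 868 to 1309 CPM in GFP-positive and 186 to 421 CPM in GFP-negative libraries (13 of 14 found, 13 tested, 6 higher), and epicardium markers to 1406 to 2159 CPM in GFP-positive and 419 to 515 CPM in GFP-negative libraries (11 of 12 found, 9 tested, 6 higher). Most of the epicardium sum was keratin genes, with krt94 at 578 ± 118 CPM in GFP-positive and 111 ± 28.5 CPM in GFP-negative libraries. aldh1a2 and tcf21, the latter also in the fibroblast list, were called too (edgeR adjusted p = 0.0239 and 0.0448). tbx18, wt1b and podxl overlapped between groups, and wt1a and upk3b did not pass the filter on low counts. Smooth muscle and pericyte markers summed to 560 to 1011 CPM in GFP-positive and 179 to 296 CPM in GFP-negative libraries (8 of 8 found, 7 tested, 2 higher). Most of that sum was acta2, at 699 ± 201 CPM in GFP-positive and 217 ± 58.5 CPM in GFP-negative libraries. The other gene called was tagln, at 17.7 ± 9.44 CPM in GFP-positive and 1.56 ± 0.476 CPM in GFP-negative libraries. The pericyte markers notch3 and pdgfrb were lower in all GFP-positive libraries and did not pass. pdgfrb had only 10, 13 and 4 counts in GFP-positive and 23, 27 and 22 in GFP-negative libraries. The pericyte marker rgs5a had a positive fold change (2.22 ± 1.07), but its groups overlapped and it did not pass. Erythrocyte markers summed to 1720 to 2670 CPM in GFP-positive and 562 to 685 CPM in GFP-negative libraries (7 of 10 found, 7 tested, 4 higher). The sum of macrophage markers overlapped, at 249 to 1029 CPM in GFP-positive and 253 to 838 CPM in GFP-negative libraries. Among them mpeg1.2 was higher in all GFP-positive libraries, at 21.7 ± 6.67 CPM against 4.55 ± 3.95 CPM in GFP-negative libraries. It did not pass (edgeR adjusted p = 0.164), and the other tested macrophage markers overlapped. The sums of neutrophil and lymphocyte markers overlapped too. Of 6 tested neutrophil markers, 1, lyz, was called lower (edgeR adjusted p = 0.0496). lyz had 0 counts in GFP-positive libraries and only 18, 31 and 30 in GFP-negative libraries. Thrombocyte markers summed to 92.2 to 201 CPM in GFP-positive and 26.8 to 57.0 CPM in GFP-negative libraries, but most of this was fn1b, which is also in the fibroblast list and was the 1 gene called of 5 tested. All 5 tested markers had positive fold changes. thbs1b was higher in all GFP-positive libraries, at 29.2 ± 14.9 CPM against 10.1 ± 3.37 CPM in GFP-negative libraries, and did not pass (edgeR adjusted p = 0.139). The markers itga2b, gp1bb and f5 overlapped between groups, and mpl was at 0 in the GFP-positive libraries. The neutrophil marker cxcr2 and the thrombocyte marker p2ry12 were at 0 in every library, unlike any other marker found. The part of these cells, and of the mitochondrially encoded share, in the levels of the immediate early genes was not tested. In bulk libraries, fewer cells of a type and less RNA per cell cannot be told apart.

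The size of each difference moved with the scaling, while, of the 10 genes, ier2a alone changed sign. Over the other scalings the log2 fold change ran from 0.28 to 0.87 for fosab, 0.62 to 1.14 for junbb, 0.80 to 1.29 for egr1, 2.05 to 2.28 for egr3, 0.80 to 1.24 for atf3 and -0.93 to -0.47 for nr4a1. For ier2a it ran from -0.17 to 0.33, so it has no direction. The median over all tested genes was -0.11 with upper-quartile factors, -0.16 without a composition factor and -0.13 with cyclic loess. The 280 higher and 288 lower genes became 258 and 450 with upper-quartile factors and 196 and 507 without a composition factor.

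**Figure D4:**
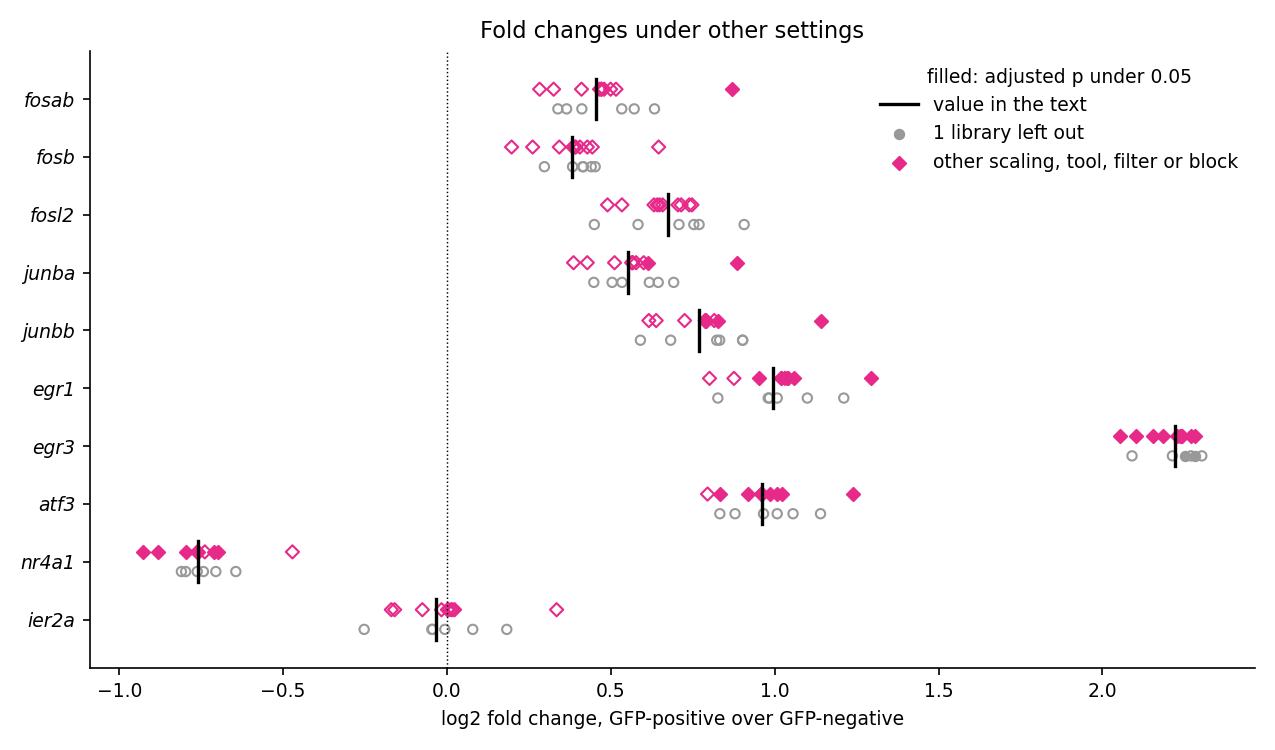
Log2 fold change (GFP-positive over GFP-negative) of each member as given in the text (black bar), in the 6 fits that left out 1 library (grey circles) and under the 10 other scalings, tools, filters or the replicate block (pink diamonds). Filled symbols have an adjusted p under 0.05. Only ier2a has symbols on both sides of 0, and no grey circle is filled for any member other than egr3.

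By likeness of pattern over the 6 libraries, junba (r = 0.98) and fosab (0.96) lay closest to the mean log2 CPM of the AP-1 genes, which they enter, followed by egr1 (0.95), which does not. nr4a1 had r = -0.91 and ier2a 0.03. Outside the gene lists, the 5 genes of at least 10 CPM most like that mean were kdm3b, mylk4a, gyg1b, sdc4 and tkfc, with Pearson r from 0.98 to 0.99. These are descriptions over 6 libraries that share the split into groups, and 185 of 5216 candidate genes had r above 0.9. sdc4, for the cell surface proteoglycan syndecan-4, stood at 2050, 2222 and 2534 CPM in GFP-positive libraries, against 1356, 1265 and 1707 CPM in GFP-negative libraries.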

How the data were processed

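The authors deposited 1 table of whole-number total counts per gene for each of 6 libraries, not normalized, per the file headers. No source used here gives the aligner, counting rules, strand setting, genome build or annotation. Coordinates are therefore left out, and reads shared by gene copies or overlapping genes may be divided either way. Per the labels' protocols, cDNA was amplified with SMART-Seq v4, without molecular identifiers, and amplified copies are therefore counted. Groups and replicate numbers came from the sample titles.

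All 25281 genes were filtered with filterByExpr, scaled by TMM and tested with edgeR 4.0.16 (R 4.3.3; quasi-likelihood F test, robust, group as the only term); 13490 genes were tested and p-values adjusted by Benjamini-Hochberg. Standard errors were taken from the fold change and F, and 95% intervals from the same fit. Alternatives used DESeq2 1.42.0, limma 3.58.1 and other scalings, filters and left-out libraries; cyclic loess was added after seeing the data. The fit was tested on simulated data with the same dispersion for every gene and both groups, so the unequal spread of these groups was not simulated. The 10 genes, the 7 gene lists (195 of their 217 entries matched a symbol) and the 10 marker lists were chosen with earlier results of these data known. From each of the 7 gene lists, up to 4 called genes of smallest adjusted p were named, or the nearest gene where none was called. jun, the other relatives of members, nab1a, mrtfab, mrtfba, dusp6 and the heat shock genes other than hspe1 were named after their values were seen. So were the genes named from the marker lists, to which the rule was not applied. With 3 against 3 libraries, a permutation test cannot go below p = 0.1, so none was used. No sequences were used.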

Additional observations from a re-analysis of the deposited data

How the results depend on the processing

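Of 160 member fold changes under 16 alternatives, 152 kept their direction and 118 also their side of the threshold; 21 were no longer past it, 13 newly past it and 8, those of ier2a, reversed. ier2a stood at 0.023 with DESeq2, 0.013 with limma-voom, 0.0051 with a spread for each group, 0.017 with the stricter filter, 0.0013 with the replicate block and 0.33 with cyclic loess, and at -0.25 to 0.18 with 1 library left out. jun reversed with DESeq2 (0.0004) and cyclic loess (0.29) and ran from -0.21 to 0.084 with 1 library left out. nr4a3 reversed with upper-quartile factors (-0.066), no composition factor (-0.18), limma-voom (-0.12), a spread for each group (-0.11), no filter (-0.0061) and the replicate block (-0.11), and ran from -0.55 to 0.36 with 1 library left out.

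Members past the threshold numbered 3, against 6 with DESeq2, 5 with limma-voom, 1 with a spread for each group, 5 with the replicate block, 6 with cyclic loess and 0 to 1 with 1 library left out. List members past it numbered 11, against 7 without a composition factor, 32 with DESeq2, 6 with a spread for each group, 17 with the replicate block, 21 with cyclic loess and 1 to 11 with 1 library left out. All genes past it numbered 568, against 1667 with DESeq2 and 44 to 1018 with 1 library left out, where fewer libraries are tested. The labels do not say that replicate numbers pair libraries. Same-numbered libraries had correlated deviations (r = 0.13, 0.19 and 0.09) and each GFP-positive library correlated best with its own number, a hint from the data only; the replicate block gave 572 calls, and 1 among the AP-1 genes (junbb, adjusted p = 0.0412). egr3, the member with fewest counts, had 98 to 131 in GFP-negative libraries. For these changes the cause was not tested.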
